A study of Mus musculus with 6 samples.

Results

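The fibroblast growth factor (FGF) ligands and receptors of mouse embryonic stem (ES) cells and early epiblast were compared between cells lacking Med23 and wild-type cells. The group holds 10 genes, the ligand genes Fgf4, Fgf5, Fgf8, Fgf15 and Fgf17 and the receptor genes Fgfr1, Fgfr2, Fgfr3, Fgfr4 and Fgfrl1, of 18193 genes measured. They were chosen by name, and every probe set that the array annotation assigns to one of these symbols alone was kept, which gave 25 of 45037 probe sets. The Med23 knockout group and the wild-type group each held 3 Affymetrix arrays of total RNA from ES cells of the 129SV strain, grown for 24 hours in fresh complete medium before harvest. The labels call the 3 replicates of each genotype biological. They do not say how the knockout was made, how many clones it stands for or whether the replicates were separate cultures. The p-values therefore set the group difference against the spread between these samples and do not extend to other clones or cultures.

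FGF ligands bind receptor tyrosine kinases at the cell surface together with heparan sulfate chains, and the activated receptors pass the signal through adaptor proteins and RAS to the kinase ERK. ERK then switches on target genes, among them genes whose products dampen the pathway again. In ES cells, FGF4 made by the cells themselves drives ERK activity and prepares them to leave the naive state for lineage commitment. Med23 is a subunit of Mediator, the complex that connects transcription factors, including the ERK-responsive factor ELK1, to RNA polymerase II.

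Med23 itself was at 7.40, 7.37 and 7.33 (log2) in the knockout arrays and 8.95, 8.86 and 8.84 in the wild-type arrays, so the labels and the targeted gene went the same way. Whether its probe set reads the deleted part is not known here. The Y-linked gene Eif2s3y, picked after its values were seen, averaged 9.87 in knockout and 3.04 in wild-type arrays, so the cells of the groups differed in more than Med23, and what follows from Med23 and from the rest of what sets the lines apart cannot be told apart. The ES cell markers Pou5f1, Nanog, Sox2, Zfp42, Esrrb and Dppa5a were all above the median of all values (4.62, log2) in both groups, and 0 of 6 passed the test in limma, 2 of them having an unadjusted p under 0.05. Of 18 markers of extraembryonic endoderm, 14 fell and 0 rose, led by Col4a2, Col4a1, Dab2 and Cubn, and the summed linear level of the list ran from 1391 to 1509 in knockout arrays, against 5278 to 6563 in wild-type arrays. Of 10 trophoblast markers, 5 fell, led by Krt8, Krt7, Krt18 and Plac1, with sums of 1226 to 1287 in knockout and 3047 to 3419 in wild-type arrays. The brightest of the 5 were the keratin genes Krt8 and Krt18, while the lineage factor genes Cdx2, Elf5, Gata3, Hand1 and Tfap2c did not pass. Another lineage factor gene, Ascl2, was the remaining marker that fell, by 0.35 on the log2 scale (limma adjusted p = 0.0206). Wild-type replicate 1 correlated less with its fellows (0.993 and 0.994 over all probe sets) than any other pair of one genotype, and in 21 of the 25 FGF probe sets it was above the mean of wild-type replicates 2 and 3. Mesoderm, neural and fibroblast markers gave 0 of 9, 3 of 9 and 2 of 11 lower and 0, 1 and 0 higher (1 mesoderm marker was lower and 1 higher at an unadjusted p under 0.05, Evx1 at -0.30 and Eomes at 0.41). By the same test, 10.4% of all genes were lower and 8.53% higher. The neural markers past the test were Olig2, Map2 and Nes, which fell, and Pax6, which rose by 2.21 on the log2 scale, and the fibroblast markers were Thy1 and Twist1. Of the 14 endoderm markers that fell, 5 had a knockout mean below 4.62, and how far other cells in the culture bear on the FGF genes was not tested. Fewer cells of a type and less RNA per cell cannot be told apart in such bulk samples.

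Among the 10 genes, 3 ligand genes fell in Med23 knockout cells and none of the 10 rose. Fgf15 fell 3.65-fold, Fgf17 1.49-fold and Fgf4 1.29-fold, each read by the probe set of the gene with the highest mean over the 6 arrays. Fgf5, Fgf8 and the 5 receptor genes did not pass limma's test at an adjusted p under 0.05. Over all genes, 10.4% were called lower and 8.53% higher by the same rule, against 3 and 0 of the 10 FGF genes. At an unadjusted p under 0.05, 5 of the 10 were lower and 1 was higher, where 16.3% and 16.7% of all genes were. By probe set, 6 of 25 were lower and 0 higher, with a background of 7.43% lower and 6.69% higher over all probe sets. The groups did not overlap in 5 genes that were lower and 1 that was higher, where 19.5% and 21.4% of all genes had such separated values. The median log2 difference, knockout minus wild-type, was -0.17 over the 10 genes and 0.02 over all genes. The calls of Fgf4 and of the brighter Fgf17 probe set were lost in several of the fits that left out 1 array, and the gene count then ran from 1 to 3. It was 1 without any of the knockout replicates in turn, 2 without wild-type replicate 2 or 3, and 3 without wild-type replicate 1, where Fgf15, Fgf17 and Fgf4 differed by -1.90, -0.45 and -0.32 (adjusted p = 0.00193, 0.0431 and 0.0397).

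**Figure D1:**
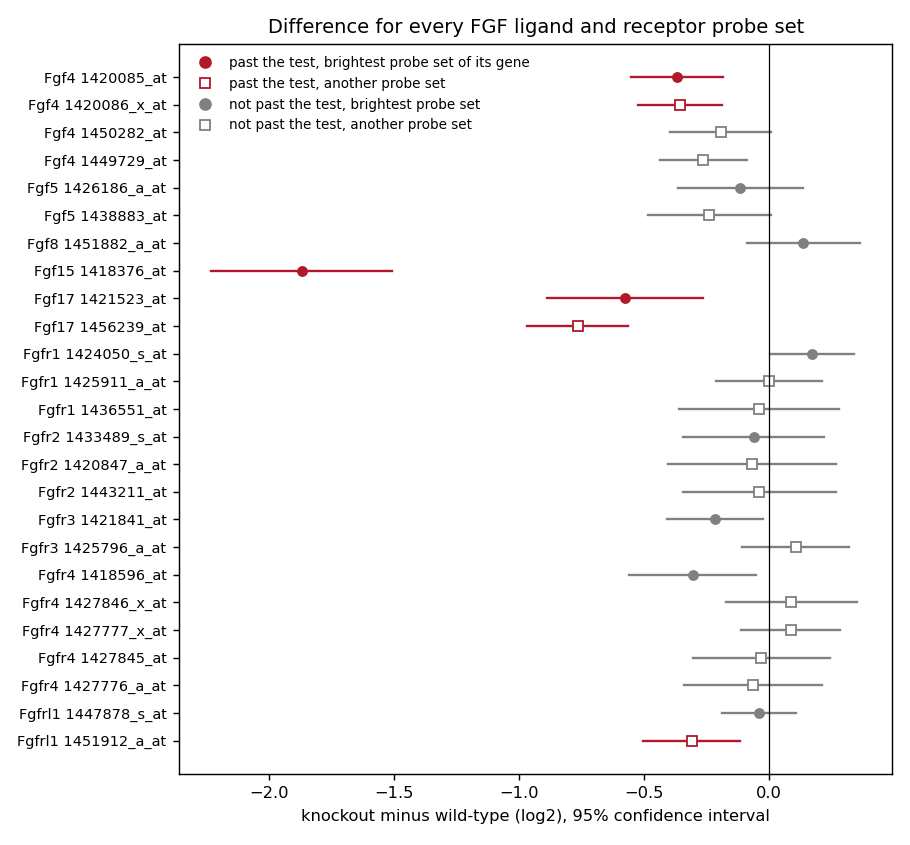
Log2 difference between Med23 knockout and wild-type arrays (x axis, knockout minus wild-type) for each of the 25 FGF ligand and receptor probe sets (rows), with 95% confidence intervals from limma and 3 arrays per group. Filled circles mark the brightest probe set of a gene and red marks a call. Fgf15 at -1.87 lies farthest from 0, and the receptor probe sets lie between -0.31 and 0.17.

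Fgf15 encodes the mouse counterpart of human FGF19, a hormone-like FGF that in the adult restrains bile acid synthesis in the liver and in the embryo is made in neural tissue. Its 1 probe set, 1418376_at, was at 4.74, 4.68 and 4.32 (log2) in the knockout arrays and 6.39, 6.26 and 6.71 in the wild-type arrays. The lowest wild-type array lay far above the highest knockout array. The means were 4.58 ± 0.23 in knockout and 6.45 ± 0.23 in wild-type cells (SD, n = 3 each). The log2 difference was -1.87 (SE 0.15, limma adjusted p = 0.000381), which placed Fgf15 78th from the bottom among the differences of 18193 genes. The knockout mean lay just under the median of all values (4.62), with 2 of the 3 knockout arrays above it. Background was not measured, so how much of so low a level is signal from Fgf15 is not known. The call held in all 12 alternative fits, with differences from -1.97 to -1.74 and adjusted p from 6.87e-05 to 0.00419.

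Fgf17, a ligand of the Fgf8 subfamily with a known role in patterning the midbrain and cerebellum, was read by 2 probe sets that both fell. Probe set 1421523_at was at 6.98, 7.09 and 7.08 (log2) in knockout and 7.87, 7.34 and 7.67 in wild-type arrays. Its knockout arrays lay close together while the wild-type arrays were spread, and the lowest wild-type value remained above the highest knockout value. The means were 7.05 ± 0.06 in knockout and 7.62 ± 0.27 in wild-type cells (SD, n = 3 each), a log2 difference of -0.58 (SE 0.13, limma adjusted p = 0.0294). The dimmer probe set, 1456239_at, was at 4.97, 5.12 and 5.08 in knockout and 5.93, 5.86 and 5.68 in wild-type arrays. It differed by -0.77 (SE 0.09, adjusted p = 0.00147), a 1.70-fold fall. The first call was lost without any 1 of the knockout arrays or without wild-type replicate 3 (adjusted p from 0.0829 to 0.0992). It was also lost with the replicate number as a block in the fit (adjusted p = 0.0570). The dimmer probe set kept its call in all 12 alternative fits (adjusted p at most 0.00986).

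Fgf4 is the main FGF ligand that ES cells make and a target of the pluripotency factors OCT4 and SOX2. Its brightest probe set, 1420085_at, was at 10.86, 10.85 and 10.94 (log2) in knockout and 11.35, 11.28 and 11.12 in wild-type arrays. The groups did not overlap, but they lay close together, and Fgf4 stayed far above the median of all values in every array. The means were 10.88 ± 0.05 in knockout and 11.25 ± 0.11 in wild-type cells (SD, n = 3 each), a log2 difference of -0.37 (SE 0.08, limma adjusted p = 0.0214). Probe sets 1420086_x_at and 1449729_at, designed from the same database sequence and so no independent readings, differed by -0.36 and -0.26 (adjusted p = 0.0167 and 0.0587). Probe set 1450282_at, designed from another sequence, differed by -0.19 and did not pass (adjusted p = 0.204). Every knockout array was below every wild-type array in all 4 probe sets, 3 of which come from the 1 sequence. The call of the brightest probe set ended without any 1 of the knockout arrays or without wild-type replicate 2 (adjusted p from 0.0558 to 0.0851). It also ended with the replicate number as a block in the fit (adjusted p = 0.0675).

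Promoter sequence from RefSeq (GRCm38.p6) was available for 6 of the 10 genes, Fgf4, Fgf5, Fgfr2, Fgfr3, Fgfr4 and Fgfrl1. The 250 bases before the annotated start are shown for Fgf4 and Fgfrl1, which among these 6 have a probe set past the test. Fgf4 lies on the plus strand, chr7:144861136-144861385, and Fgfrl1 on the plus strand, chr5:108693979-108694228. Capitals mark matches on either strand to GGGCGG (the GC box), to the CCAAT box spelled by its name, to the TATA-like motif TATATA and to GCGNGGGCG, a motif bound by EGR factors. The TATA box TATAAA was searched in the same way and found in neither window.
Fgf4: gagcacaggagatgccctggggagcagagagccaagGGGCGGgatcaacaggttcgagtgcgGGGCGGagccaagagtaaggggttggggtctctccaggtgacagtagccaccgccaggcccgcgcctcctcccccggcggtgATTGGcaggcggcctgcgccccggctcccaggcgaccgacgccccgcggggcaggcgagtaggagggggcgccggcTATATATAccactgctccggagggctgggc
Fgfrl1: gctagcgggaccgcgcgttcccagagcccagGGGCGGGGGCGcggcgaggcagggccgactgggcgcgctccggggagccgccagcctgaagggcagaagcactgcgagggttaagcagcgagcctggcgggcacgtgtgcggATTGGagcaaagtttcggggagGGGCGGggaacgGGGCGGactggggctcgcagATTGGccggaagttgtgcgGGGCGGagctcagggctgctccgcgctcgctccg

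The Fgf4 window holds 2 GC boxes, 1 CCAAT match on the minus strand 106 bases before the start, and a TATATATA run that begins 30 bases before the start and reads as TATATA on both strands. The Fgfrl1 window holds 4 GC boxes, 2 CCAAT matches on the minus strand and 1 EGR match that overlaps the most distant GC box. Of 32851 RefSeq windows of the same length, 32.7% hold a GC box, 33.8% CCAAT, 5.25% TATATA, 12.4% TATAAA and 4.70% the EGR motif. These matches describe the letters in the window only.

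Fgf5 and Fgf8 lay in the low range of the arrays in both groups. Fgf5, a marker of the primed epiblast after implantation, was at 3.91, 3.84 and 3.74 (log2) in knockout and 4.13, 3.95 and 3.76 in wild-type arrays by probe set 1426186_a_at, with overlapping groups. The log2 difference was -0.12 (95% interval -0.36 to 0.13, limma adjusted p = 0.562). Its other probe set, 1438883_at, differed by -0.24 (adjusted p = 0.198) at levels of 2.65 to 3.15. Fgf8, which patterns the gastrulating embryo and the brain, was at 3.17, 3.43 and 3.13 in knockout and 3.15, 3.15 and 3.01 in wild-type arrays by its 1 probe set, 1451882_a_at (difference 0.14, 95% interval -0.09 to 0.36, adjusted p = 0.437). All these values were under 4.62, in the lower range of the arrays.

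**Figure D2:**
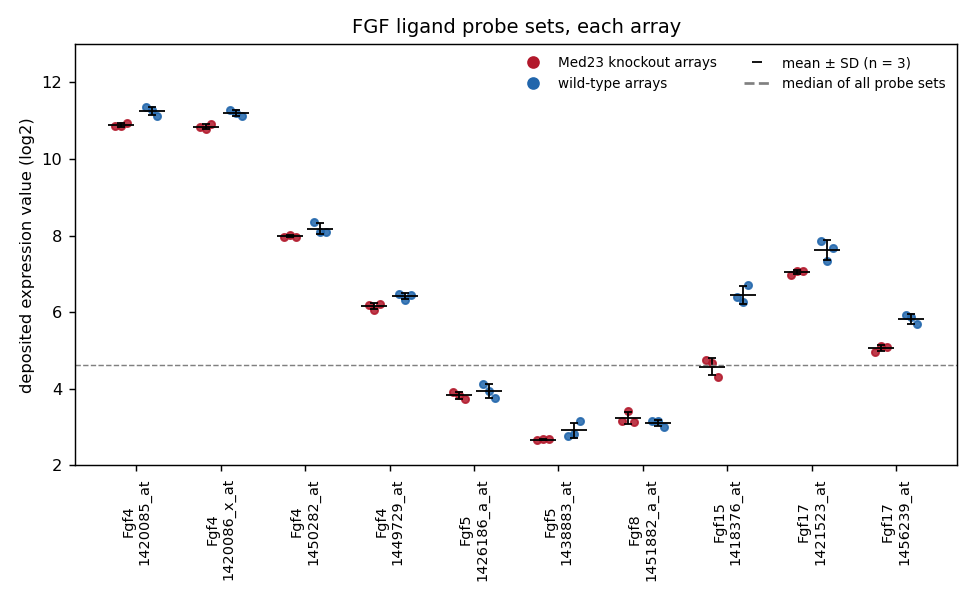
Deposited log2 expression values (y axis) of the 10 probe sets of the 5 FGF ligand genes, with a point per array, Med23 knockout in red left of wild-type in blue, and mean ± SD (n = 3). The dashed line is the median of all probe sets, 4.62. Fgf15 knockout arrays sit at 4.32 to 4.74 and its wild-type arrays at 6.26 to 6.71, while Fgf5 and Fgf8 lie under the line in both groups.

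Of the 5 receptor genes, 0 passed limma's test by their brightest probe set, although 3 had an unadjusted p under 0.05, as did 33.1% of all genes. Their median log2 difference was -0.06, and the intervals of all 5 excluded a 2-fold change in either direction. Fgfr1, the main FGF receptor of ES cells and epiblast, was at 8.69, 8.78 and 8.68 (log2) in knockout and 8.59, 8.45 and 8.61 in wild-type arrays by probe set 1424050_s_at. The knockout arrays were all slightly above the wild-type arrays, with a difference of 0.17 (SE 0.07, 95% interval 0.00098 to 0.34, adjusted p = 0.184). Fgfr1 probe sets 1425911_a_at and 1436551_at differed by -0.0008 and -0.04 with overlapping groups (adjusted p = 0.997 and 0.896). Thus 1 of the 3 Fgfr1 probe sets had separated groups and none was called.

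Fgfr2, the receptor best known from the primitive endoderm of the blastocyst and from epithelia, was at 6.55, 6.45 and 6.37 in knockout and 6.78, 6.40 and 6.37 in wild-type arrays by probe set 1433489_s_at. The groups overlapped almost wholly, with 1 higher wild-type array, replicate 1. The difference was -0.06 (95% interval -0.34 to 0.22, adjusted p = 0.805). Probe sets 1420847_a_at and 1443211_at differed by -0.07 and -0.04, the second of them with both group means under 4.62. The groups overlapped in all 3 Fgfr2 probe sets. Whether this bears on the fall of 14 of 18 endoderm markers was not tested.

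Fgfr3, a receptor known for restraining growth of cartilage, was at 6.25, 6.23 and 6.15 in knockout and 6.47, 6.53 and 6.29 in wild-type arrays by probe set 1421841_at. The groups were separate by a small margin, with a difference of -0.22 (SE 0.08, adjusted p = 0.139). Its dimmer probe set, 1425796_a_at, went the other way by 0.11 (adjusted p = 0.531). Fgfr4, which in the liver receives the FGF15 signal, was at 5.30, 5.45 and 5.31 in knockout and 5.87, 5.48 and 5.63 in wild-type arrays by probe set 1418596_at. Here too the groups did not overlap, but the lowest wild-type array was only just above the highest knockout array (difference -0.31, SE 0.11, adjusted p = 0.116). The other 4 Fgfr4 probe sets overlapped between groups, with differences from -0.07 to 0.09.

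Fgfrl1 encodes a receptor-like protein that binds FGFs but lacks the kinase domain. By its brighter probe set, 1447878_s_at, it was at 7.40, 7.29 and 7.30 in knockout and 7.38, 7.39 and 7.35 in wild-type arrays, with overlapping groups and a difference of -0.04 (95% interval -0.19 to 0.11, adjusted p = 0.737). By probe set 1451912_a_at it was at 6.004, 6.17 and 6.17 in knockout and 6.51, 6.31 and 6.45 in wild-type arrays, which did not overlap. This was the only receptor probe set past the test, at -0.31 (SE 0.08, adjusted p = 0.0482). It passed in 1 of 12 alternative fits, with adjusted p up to 0.152 without knockout replicate 1, so the call rests on the setting.

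**Figure D3:**
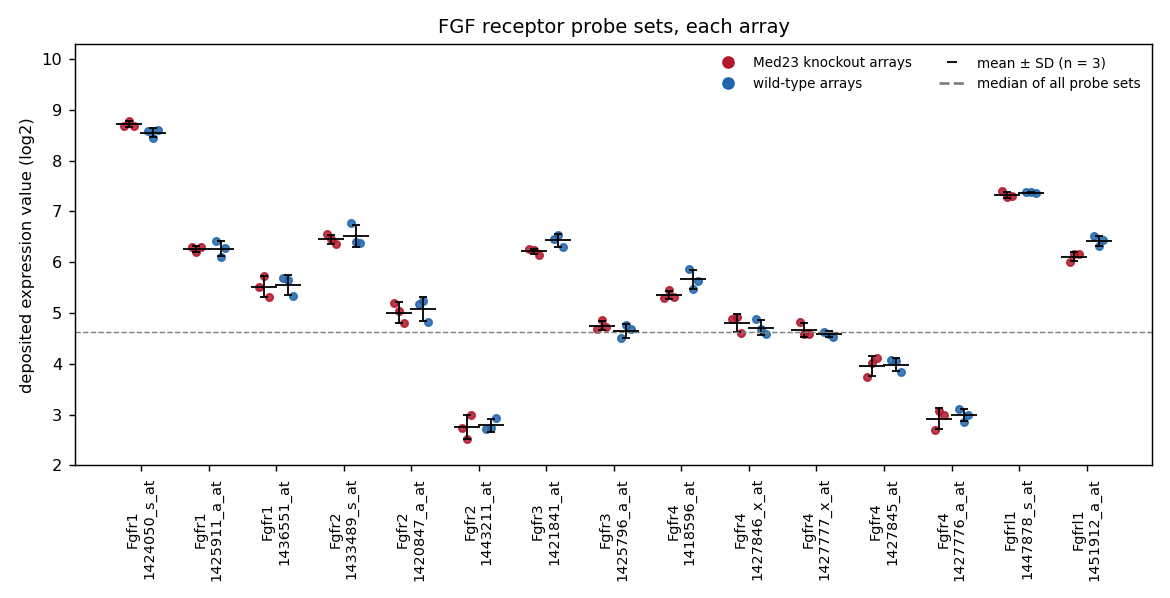
Deposited log2 expression values (y axis) of the 15 probe sets of the 5 FGF receptor genes, with a point per array, Med23 knockout in red left of wild-type in blue, mean ± SD (n = 3), and the median of all probe sets (4.62) as a dashed line. The groups overlap in 11 probe sets. The probe sets of Fgfr3, Fgfr4 and Fgfrl1 with the groups apart are lower in knockout arrays, and that of Fgfr1 is higher.

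The rest of the pathway was described by lists of genes, 1 probe set a gene. The share to set beside each list's counts is that of all genes, 10.4% lower and 8.53% higher. Of the 17 other FGF family genes, not all of which encode secreted ligands, 2 fell, 1 rose and 14 did not pass. Both group means were under 4.62 in 12 of them. Fgf18, a ligand of bone and lung development, was at 3.64, 3.18 and 3.81 in knockout and 4.63, 4.62 and 4.63 in wild-type arrays (log2 difference -1.08, SE 0.15, limma adjusted p = 0.00402). Fgf13, an intracellular FGF relative that is not secreted, fell by 0.53 on the log2 scale (adjusted p = 0.00202), and Fgf1 rose by 0.48 (adjusted p = 0.0139). The knockout mean of Fgf18 was below 4.62, and its wild-type mean, 4.63, was barely above it. Both means of Fgf1 were below 4.62, at 4.55 in knockout and 4.06 in wild-type cells. The Fgf1 call thus lies wholly in the low range of the arrays. Of the probe sets of Fgf13 and Fgf1, 1 of 2 and 1 of 3 passed. Fgf3, counted as not past the test by its brightest probe set, had 1 of 3 probe sets called lower. No gene of the list was higher without knockout replicate 3, and the filter on dim probe sets left 1 lower and 0 higher. The list's median difference was 0.02, equal at this precision to that of all genes.

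The next list held 24 measured genes of co-receptors, FGF-binding proteins, heparan sulfate proteoglycans and heparan sulfate synthesis and editing. Of these, 8 were lower, 2 higher and 14 not past the test, with a median difference of -0.19. The 8 were Klb, Flrt3, Fgfbp1, Fgfbp3, Gpc1, Sdc1, Sdc2 and Sdc4, and no synthesis or editing gene was called lower. Sdc1 was lower by 2 of 4 probe sets and Sdc2 by 1 of 4, and both means of Fgfbp3 were under 4.62. Gpc4 and Hs2st1 did not pass by their brightest probe sets, but each had 1 dimmer probe set called higher. Klb, which encodes the co-receptor that FGF15 and FGF21 need to signal, was at 4.22, 4.07 and 4.33 in knockout and 5.58, 5.52 and 5.25 in wild-type arrays. Its groups were well apart (log2 difference -1.24, SE 0.11, limma adjusted p = 0.000518), though the knockout mean was below 4.62 and 1 of its 2 probe sets passed. Flrt3, a membrane protein that binds FGF receptors, was at 5.54, 5.45 and 5.37 in knockout and 6.56, 6.999 and 6.60 in wild-type arrays, a fall of 2.41-fold (adjusted p = 0.000844). The glypican gene Gpc3 rose 2.06-fold (adjusted p = 0.000498) and Ext1, a heparan sulfate polymerase gene, 1.71-fold (adjusted p = 0.000596), Ext1 by 1 of 2 probe sets. Without knockout replicate 3 the count of lower genes was 5.

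Of 21 measured genes in and around the relay from receptor to ERK, 1 fell and 1 rose, with a median difference of 0.09. The list also takes in genes of the PI3K branch, an ERK-activated kinase gene and genes that restrain the signal. Both called genes lie outside the stretch from receptor to ERK. Over all genes, also read by 1 probe set each, 10.4% were called lower and 8.53% higher. By that reading the list's counts do not stand out from the background. Among the genes counted as not past the test, Grb2, Shc1 and Nras each had 1 dimmer probe set called higher. Pik3ca had 1 dimmer probe set called lower. Akt1, a kinase of the PI3K branch, fell by 0.41 on the log2 scale (adjusted p = 0.0146), and the ERK-activated kinase gene Rps6ka3 rose by 0.37 (adjusted p = 0.00742), by 1 of 4 and 1 of 3 probe sets. The other 7 genes on the list were not analysed here. The counts ran from 0 to 2 lower and from 1 to 5 higher over 12 alternative fits. The larger counts came with the fits that filtered dim probe sets, weighted arrays or used an intensity trend, which gave 2 lower and 5, 4 and 3 higher. None was lower without knockout replicate 1, 2 or 3, 2 were lower without wild-type replicate 1, and 2 were higher under quantile normalization or without wild-type replicate 1 or 3.

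At the output end, 11 of 21 target and feedback genes fell, 3 rose and 7 did not pass, and the median difference was -0.40. Egr1, the immediate early gene encoding a zinc finger factor, was at 5.10, 4.86 and 4.96 in knockout and 9.97, 9.90 and 9.70 in wild-type arrays (log2 difference -4.88, SE 0.10, limma adjusted p = 5.20e-06). Phlda1 fell 3.94-fold, Spry2, which encodes a feedback inhibitor of receptor signalling, 1.895-fold and the MAP kinase phosphatase gene Dusp9 1.86-fold (adjusted p from 0.000179 to 0.000398). The 3 that rose were Spry1 by 0.50, Spred2 by 0.32 and Epha4 by 0.28 on the log2 scale (adjusted p = 0.00984, 0.0401 and 0.0472). Spry1 and Spry2 thus went opposite ways. The count of lower genes ran from 10 to 12 over 12 alternative fits, and that of higher genes was 1 without knockout replicate 1, 2 or 3 or without wild-type replicate 2. Of 18 genes of the naive and primed epiblast, 7 rose and 5 fell (median 0.17). The list pools genes of both states, so its counts and median give no direction between them. The claudin gene Cldn6 and the POU factor gene Pou3f1 fell by 1.59 and 0.999 on the log2 scale, while Zic5 and Zic2 rose by 1.16 and 1.09. Of this list, 3 genes were higher without knockout replicate 1, 2 or 3 or without wild-type replicate 2, and 3 were lower without knockout replicate 1 or 3.

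**Figure D4:**
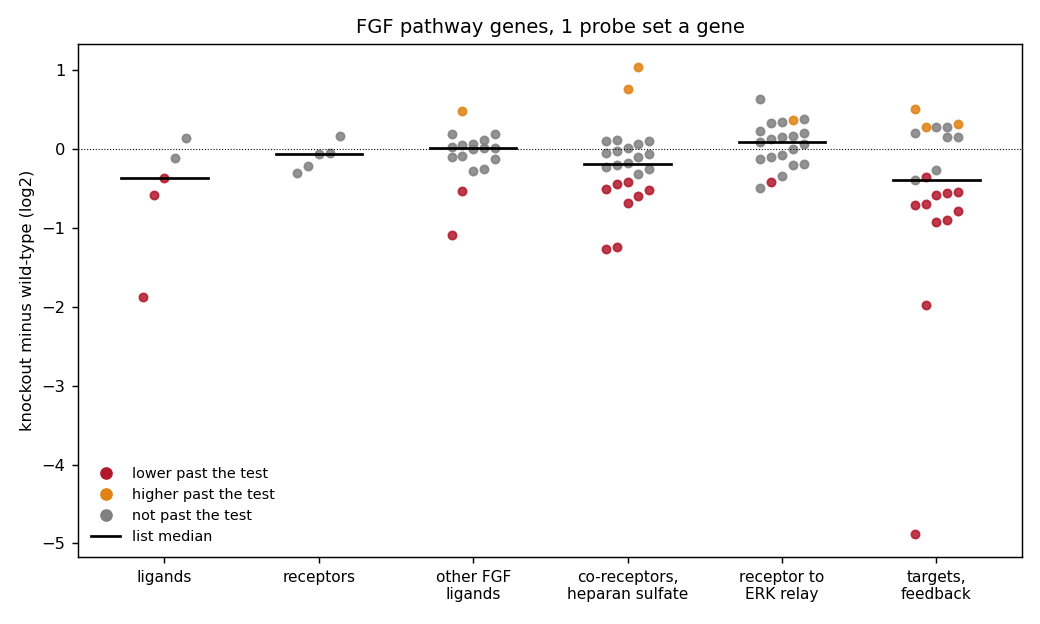
Log2 difference between Med23 knockout and wild-type arrays (y axis, knockout minus wild-type) for each gene of the FGF pathway lists, with red points lower past the test, orange points higher, grey points not past the test and a black line at each list's median. The lowest point among targets and feedback genes is Egr1 at -4.88 and the lowest among the 5 ligands is Fgf15 at -1.87.

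Position on the chromosome was described next, because several stretches of chromosomes were known from earlier results of these data to be lower in the knockout. Fgf4 and Fgf15 are neighbours on chromosome 7, with Fgf3 on the Fgf4 side and LTO1 and then Ccnd1 on the Fgf15 side. By their brightest probe sets, Fgf3 differed by -0.27 (limma adjusted p = 0.236) and LTO1 by -0.09 (adjusted p = 0.504). Of the 3 Fgf3 probe sets, 1 that was not the brightest was called lower. Ccnd1, the cyclin D1 gene, named here after its value was seen, fell by 0.71 on the log2 scale. The 15 genes nearest to Fgf15, limited by the chromosome end, had a median difference of -0.02, and 2 of them were lower past the test, Fgf4 and Ccnd1. Fgf17, on chromosome 14, differed by -0.58 among 20 neighbours with a median of 0.10, of which 1 was lower. Fgfr1, on chromosome 8, had 20 neighbours with a median of -0.09, of which 3 were lower and 1 higher. Taking only neighbours above the median of all values, a setting added after the data were seen, the Fgfr1 neighbours had a median of -0.19 with 7 of 20 lower and 2 higher, beside the Fgfr1 difference of 0.17. In the same setting the neighbours of Fgf15 gave 2 lower and 2 higher of 14, those of Fgf17 1 and 1 of 20, and those of Fgf5 3 and 6 of 20. Over all genes, 10.4% were called lower and 8.53% higher. No such share was taken over genes above the median alone, so the counts in this setting have no background of their own.

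**Figure D5:**
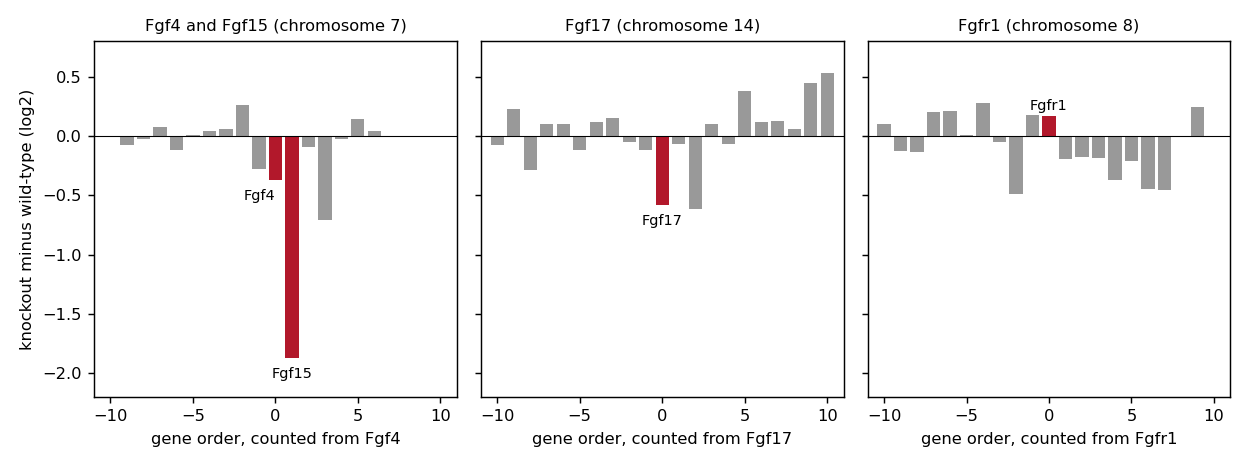
Log2 difference between Med23 knockout and wild-type arrays (y axis) for the measured genes around Fgf4 and Fgf15, Fgf17 and Fgfr1 in chromosome order (x axis, number of genes from the named gene), with FGF genes in red. Fgf15 at -1.87 and Fgf17 at -0.58 stand below most of their neighbours, and several genes beside Fgfr1 are below 0.

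The genes whose values over the 6 arrays were most like those of the 3 called ligands were taken from 11607 genes with a mean above the median of all values, by the Euclidean distance after each gene's own mean was subtracted. For Fgf15 these were the AP-1 subunit gene Jun (distance 0.30, log2 difference -2.06), the matricellular protein gene Ccn1 (0.30 and -1.78) and the tight junction gene Cldn7 (0.39 and -1.79). For Fgf17 they were the neuropeptide gene Nmb, 2410003I16Rik and the glutathione transferase gene Gstk1, at distances of 0.15 to 0.18. For Fgf4 they were Map7, Rpusd1 and Mdp1, at distances of 0.058 to 0.066. Distances are in log2 units and shrink with the size of the change, so they cannot be set against each other between the 3 ligands, and with 6 arrays in 2 groups the likeness is mostly that of the group difference.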

How the data were processed

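Expression was deposited by the authors as log2 values, 1 column for each array. No log base is stated, and log2 was inferred from the span of the values. The submitters' processing notes name RMA and MAS5 without saying which gave the values and without versions. The values were used as deposited. There were 0 columns of other samples. Array precision is limited by the 3 arrays per group; detection calls were not used.

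After removal of 64 array controls, 45037 probe sets were tested with limma 3.58.1 in R 4.3.3 (lmFit, eBayes, equal weights), two-sided, Benjamini-Hochberg over all of them, threshold 0.05, with 4 residual and 3.08 prior degrees of freedom. Summaries and figures were made in Python 3.11.15. Platform symbols were updated to RefSeq (GRCm38.p6) by Entrez identifier for 34741 of the 34945 probe sets with 1 symbol; 932 had several and 9160 none. That table gave names and gene order only, the values being tied to no build. A gene is represented by its probe set with the highest mean, and probe sets of a gene were not averaged. A suffix of _x_at or _s_at marks probe sets whose probes can match further transcripts.

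Named genes were all members, and for each list, its 4 or fewer called genes of largest difference, or, with no call, its 2 of lowest p, beside all ES cell markers and the nearest measured neighbours of Fgf4 and Fgf15; those of Fgf17 and Fgfr1 are given by count. The trophoblast factors that did not pass, Ascl2 and Eif2s3y were named after their values were seen. So were Fgfbp1, Fgfbp3, Gpc1, Gpc4, Hs2st1, Sdc1, Sdc2, Sdc4, Grb2, Shc1, Nras, Pik3ca, Spry1, Spred2 and Epha4. The members and lists were chosen with earlier results of these data known, and the promoter motifs after the values were seen. In data simulated for this comparison, the fit called 47% of 100 probe sets shifted by 0.5 and 89% of 100 shifted by 1 (log2), with 6 false calls over 45037 probe sets. Far fewer probe sets were shifted there than the 3013 higher and 3346 lower called in the data, and all shifted ones had wild-type means above the median. The adjusted threshold was thus stricter in the simulation, and its shares do not give the recovery of the reported test.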

Additional observations from a re-analysis of the deposited data

How the results depend on the processing

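Of the 10 FGF genes, 3 were lower under quantile normalization, centring on the array median, the filter on dim probe sets, array weights, the intensity trend and the median over the probe sets of a gene, and 0 were higher in any alternative. With the replicate number as a block, 1 gene and 2 member probe sets were lower and 1915 probe sets in all were higher, against 3, 6 and 3013. The numbers pair nothing in the labels, the deviations of same-numbered arrays correlated at -0.13, -0.06 and 0.0008, and no knockout array correlated best with the wild-type array of its own number. Leaving out 1 array gave 1 to 3 lower genes, 2 to 5 lower member probe sets, and 1497 to 3494 higher and 2289 to 3613 lower probe sets in all. The other member probe set counts lay between 5 and 7. The cause was not tested.

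Signs turned only in receptor probe sets that were never called. Fgfr1 1425911_a_at, at -0.0008, was at 0.057 with array weights, 0.0077 with centring and 0.027 with quantile normalization, and ran from -0.078 to 0.072 without 1 array. Without 1 array, Fgfr1 1436551_at ran from -0.15 to 0.062, Fgfr2 1433489_s_at from -0.13 to 0.068, Fgfr2 1420847_a_at from -0.20 to 0.036, Fgfr2 1443211_at from -0.16 to 0.071, Fgfr4 1427845_at from -0.11 to 0.075 and Fgfr4 1427776_a_at from -0.14 to 0.049. Subtracting the median of neighbouring genes turned the sign of none of the 3 called ligand genes. No background was measured, which limits what can be said of Fgf5, Fgf8 and the knockout level of Fgf15, whose means lay under the median of all values.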
